A study of Mus musculus with 10 samples.

Results

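The libraries described here came from 3 B16F10 tumors that had each been divided, with 1 library made from each of the 2 pieces. B16F10 is a pigmented mouse melanoma line, here made to overexpress Ly86 or carrying the vector alone. Every mouse of the study had received 4 rounds of antibodies to PD-1 and CTLA4, inhibitory receptors of T cells, before the tumors were snap-frozen. The pieces belonged to Ly86 tumor 1, which carried the Ly86 construct, and to vector tumors 1 and 2, and made up 6 of the 10 libraries of polyadenylated RNA. The other 4 libraries were the only ones of their tumors, Ly86 tumors 2, 3 and 4 and vector tumor 3. The labels of Ly86 tumors 2 and 3 and vector tumor 3 end in the number 1, as does 1 label of each divided tumor. That of Ly86 tumor 4 has no such number. None of these labels says whether a piece or the whole tumor was used. The libraries were chosen by their labels, whose closing numbers for the pieces of a tumor are read here as first and second. The labels do not say that these numbers mark the same side of each tumor. Nothing in the labels says how the tumors were cut, which tissue around them was kept, or that each came from a different mouse. The values below are TPM, the usual measure of transcript share in a library, and a difference is the first piece minus the second on the log2(TPM + 1) scale, which understates the change of genes with low values. A gene counted as apart when this difference reached 1 in size (2-fold) and as close when it stayed under 0.25. Each piece gave 1 library, so a difference within a tumor has no replicate check and no p-value. Where a pair of values is given for a tumor, the first piece comes first, and values for the 3 tumors stand in the order Ly86 tumor 1, vector tumor 1 and vector tumor 2 unless another is given.

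A tumor sample contains more than tumor cells, and the labels do not say where in the body these tumors grew. Melanoma cells are marked by the melanosome genes under the transcription factor Mitf, whereas fibroblasts lay down collagens, endothelial cells line vessels, and macrophages and lymphocytes enter from the blood. Skin taken with a tumor adds the layered keratinocytes of the epidermis, which switch from basal to differentiated keratins as they rise, and hair follicles with keratins and trichohyalin of their own. Beneath the skin of a mouse lie fat and a thin sheet of skeletal muscle. Because TPM is a share of the whole library, a large contribution from one tissue lowers the values of the others.

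Within Ly86 tumor 1 and within vector tumor 1 the pieces were near each other, and within vector tumor 2 they were not. Over the 14814 genes that averaged 1 TPM or more in the 6 libraries, of 27919 in the table, the nearest of the other 9 libraries to each piece of vector tumor 1 was its own partner, with 798 genes apart. The first piece of Ly86 tumor 1 was also nearest to its partner (1050 genes), while the second was marginally nearer to Ly86 tumor 2 (1028 genes). The first piece of vector tumor 2 was nearest to the second piece of Ly86 tumor 1, with 1373 genes apart, and its own partner came only at rank 7 of 9 with 2971. The second piece of vector tumor 2 was nearest to the first piece of vector tumor 1 (914 genes), and of all 9 libraries its own partner was the farthest. These 2 libraries therefore stood apart from each other although the labels give them to 1 tumor. The labels were taken as given, and whether a library was exchanged between tumors was not tested. Were one exchanged, the differences given for vector tumor 2 would lie between tumors and not within one. For this reason the total counts of genes apart and close, and the test between tumors, are also given without vector tumor 2. Counts of single lists over all 3 tumors and shares of variance are given only with it. The clock gene Per1 was high in both pieces of vector tumor 2, at 70.7 and 73.2 TPM against 10.3 to 20.9 TPM in the other 8 libraries. Per1 was picked by the test between tumors given below, which takes the labels as true, so its likeness in these pieces came with that choice. Ly86, the overexpressed gene, did not separate the Ly86 tumor from the vector tumors in these pieces, since it stood at 49.1 and 81.9 TPM in Ly86 tumor 1, 6.24 and 9.88 TPM in vector tumor 1 and 80.9 and 7.85 TPM in vector tumor 2. The labelled melanoma was plain in every piece, where none of the 21 tested pigment lineage genes was listed at 0 and their summed level was 13547 to 25349 TPM. Between 19304 and 21882 genes had a value above 0 in a library, and read depth is unknown because TPM does not keep it.

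**Figure D1:**
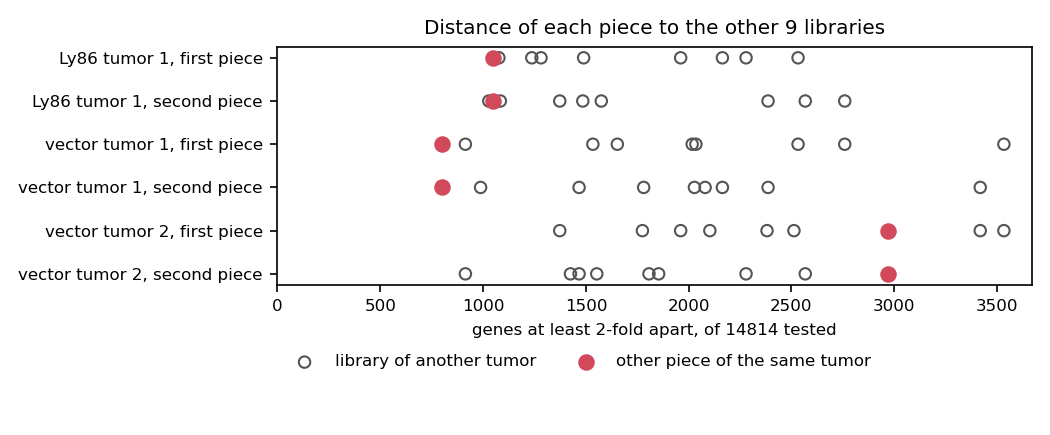
For each piece (rows), the number of tested genes at least 2-fold apart from each of the other 9 libraries (x axis), with the other piece of the same tumor as a filled red point and libraries of other tumors as open points. The red points lie at or near the left end for Ly86 tumor 1 and vector tumor 1, and at 2971 genes for vector tumor 2.

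Most genes were not 2-fold apart between the pieces of any tumor, and vector tumor 2 had the most that were. In Ly86 tumor 1, 429 genes were at least 2-fold higher in the first piece, 2.9% of those tested, and 621 in the second, 4.19%. In vector tumor 1 the counts were 201 (1.36%) and 597 (4.03%). Vector tumor 2 had 2602 genes higher in its first piece (17.6%) and 369 higher in its second (2.49%), so its first piece held the excess. These percentages are the background for the counts of each gene list below. The balance of the counts depended on the scaling. Of the genes apart, 87.6% were higher in the first piece in vector tumor 2 and 25.2% in vector tumor 1, against 62.4% and 40.1% after quantile normalization, which moved the median gene of vector tumor 2 from 0 to -0.22. As deposited, the median gene differed by 0.012 in Ly86 tumor 1, by -0.13 in vector tumor 1 and by 0 in vector tumor 2, and the median size of the difference was 0.20, 0.21 and 0.37. A gap between the pieces of 1 tumor was wider than the whole range over the 4 tumors with a single library for 16.1% of genes in Ly86 tumor 1, 13.9% in vector tumor 1 and 38.5% in vector tumor 2. The same share was not computed for pairs of libraries from different tumors, so these values have no background beside them. Genes of low level were apart more often. At a mean of 1 to 5 TPM, 16.1%, 10.1% and 36.7% were apart in the 3 tumors, and at 100 TPM or more 1.82%, 2.25% and 8.77%.

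**Figure D2:**
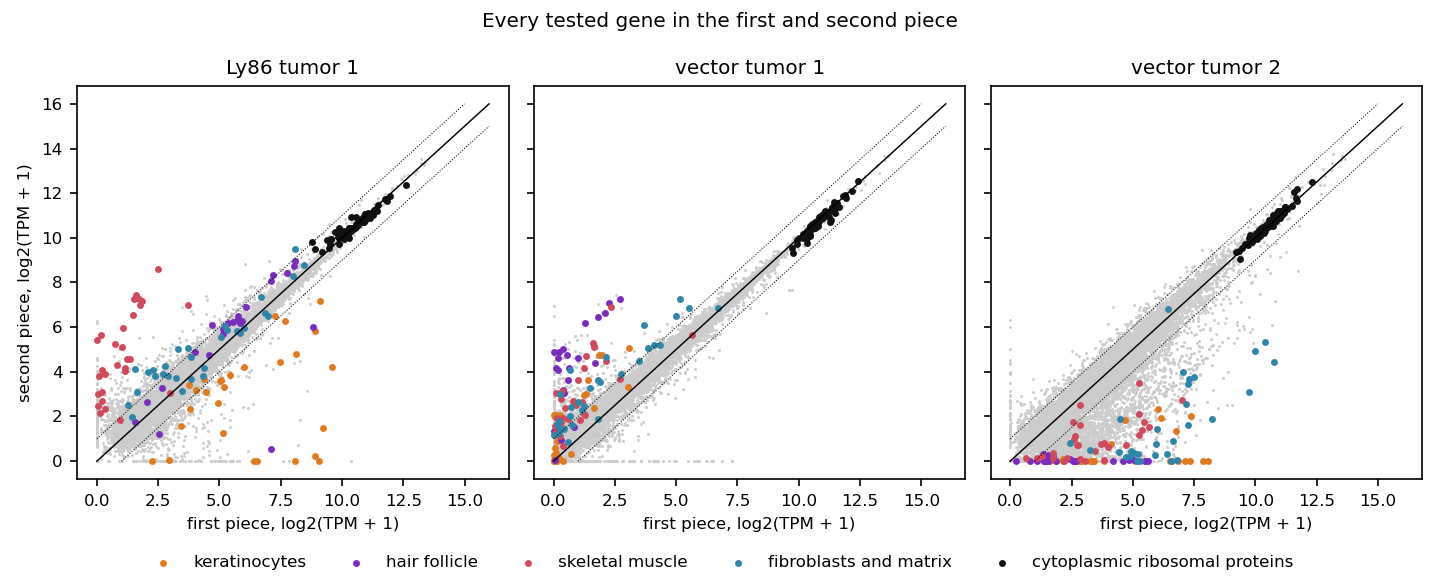
Level of every tested gene in the first piece (x axis) and the second piece (y axis) of each tumor, both as log2(TPM + 1), with 5 gene lists in colour, the line of equal levels and dotted lines 1 log2 unit to either side. Most ribosomal protein genes lie on or near the line of equal levels in all 3 panels, and 1 lies past a dotted line in Ly86 tumor 1. Muscle and hair follicle genes lie mostly above the line of equal levels in vector tumor 1. Keratinocyte genes lie below it in Ly86 tumor 1, and the 4 tissue lists mostly below it in vector tumor 2.

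Skeletal muscle was the list with the most genes apart in all 3 tumors. It was carried by the second piece of Ly86 tumor 1 and of vector tumor 1 and by the first piece of vector tumor 2. Acta1, the actin of muscle fibers, stood at 4.61 and 393 TPM in Ly86 tumor 1, 4.09 and 117 TPM in vector tumor 1, and 126 and 5.63 TPM in vector tumor 2. The low piece of each tumor thus held between 4.09 and 5.63 TPM and the high piece more than 100. The differences were -6.13, -4.54 and 4.26. Ckm, the creatine kinase of muscle, stood at 2.30 and 151 TPM in Ly86 tumor 1, 1.48 and 24.7 TPM in vector tumor 1, and 37.6 and 1.28 TPM in vector tumor 2. Myh4, the myosin of the fastest fibers, was near 0 in every low piece, at 0.11, 0.07 and 0.03 TPM, against 48.8, 7.37 and 13.4 TPM in the partners. Of the 29 tested genes of the muscle list, 27 were at least 2-fold higher in the second piece of Ly86 tumor 1, 22 in that of vector tumor 1 and 25 in the first piece of vector tumor 2, and 19 were apart in all 3. Of all tested genes, 1.24% were apart in all 3. The median of the list was -3.56 in Ly86 tumor 1, -1.59 in vector tumor 1 and 2.20 in vector tumor 2. In such tissue pieces, fewer cells of a type and less RNA per cell cannot be told apart. Among the single-library tumors the list was low in Ly86 tumors 3 and 4, with summed levels of 16.2 and 13.6 TPM, and higher in Ly86 tumor 2 (646 TPM) and vector tumor 3 (288 TPM).

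Epidermis and hair follicle, both parts of skin, were not always high in the same piece. Krt14, the keratin of basal keratinocytes, stood at 777 and 17.6 TPM in Ly86 tumor 1 and at 139 TPM in the first piece of vector tumor 2, and was listed at 0 in the second. Krt1 and Krt10, the keratin pair of the differentiated layers, were at 476 and 597 TPM in the first piece of Ly86 tumor 1 against 0.18 and 1.83 TPM in the second, differences of 8.66 and 7.72. In vector tumor 1 Krt14 was low in both pieces, at 2.16 and 4.16 TPM. Genes of the cornified layer, the dead outer shell of the epidermis, were high in the same pieces. Lor (loricrin) held 273 TPM in the first piece of Ly86 tumor 1 and 113 TPM in the first piece of vector tumor 2, and was listed at 0 in both partners. Flg (filaggrin) held 91.1 and 6.15 TPM in these pieces. Krt16, a keratin of stressed and wounded epidermis, held 310.5 TPM in the first piece of Ly86 tumor 1 but 10.4 TPM in the first of vector tumor 2. Sprr2a2, of a family of proteins of that layer whose near-identical copies make its value uncertain, held 1307 and 27.9 TPM there. Of 28 tested keratinocyte genes, 24 were at least 2-fold higher in the first piece of Ly86 tumor 1 and 28 in that of vector tumor 2, while 15 were higher in the second piece of vector tumor 1, with medians of 2.10, 3.38 and -1.17. In vector tumor 1 the list was low in both pieces, at a mean of 0.67 and 1.74 log2(TPM + 1). Krt10 there was at 0.62 and 0.26 TPM, and Krt1 at 0.29 TPM in the first piece and listed at 0 in the second.

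Hair follicle genes were high in both pieces of Ly86 tumor 1 and in 1 piece of each vector tumor. Tchh, trichohyalin of the inner root sheath, stood at 265 and 421 TPM in Ly86 tumor 1, 3.74 and 134 TPM in vector tumor 1 and 28.0 and 0.02 TPM in vector tumor 2. Krt71, a keratin of the same sheath, was higher in the same piece of each tumor, at 272 and 506 TPM in Ly86 tumor 1 and 5.51 and 151 TPM in vector tumor 1, while in vector tumor 2 it held 44.2 TPM in the first piece and was listed at 0 in the second. Krt81, a keratin of the hair shaft, did not follow the sheath in vector tumor 2, where it reached 1.12 TPM in the first piece, against 28.3 TPM in the second piece of vector tumor 1 and 46.0 and 73.5 TPM in Ly86 tumor 1. Krt79, which marks the duct that joins follicle and epidermis, went with the epidermis instead, at 136 and 0.44 TPM in Ly86 tumor 1 and 43.7 TPM in the first piece of vector tumor 2. Of the 23 tested follicle genes, 20 were at least 2-fold higher in the second piece of vector tumor 1 (median -3.89) and 21 in the first piece of vector tumor 2 (median 2.35). In Ly86 tumor 1, 3 were higher in the first piece and 2 in the second by this measure, with a median of -0.66. The largest differences toward the second piece in vector tumor 1 were mostly those of hair genes, among them Krt83, S100a3 and keratin-associated proteins such as Krtap8-1 (4.90 and 175 TPM), a family whose similar sequences make single values uncertain. Ly86 tumors 3 and 4 held almost no follicle signal, with summed levels of 1.16 and 1.15 TPM, and Ly86 tumor 2 and vector tumor 3 held 309 and 612 TPM.

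**Figure D3:**
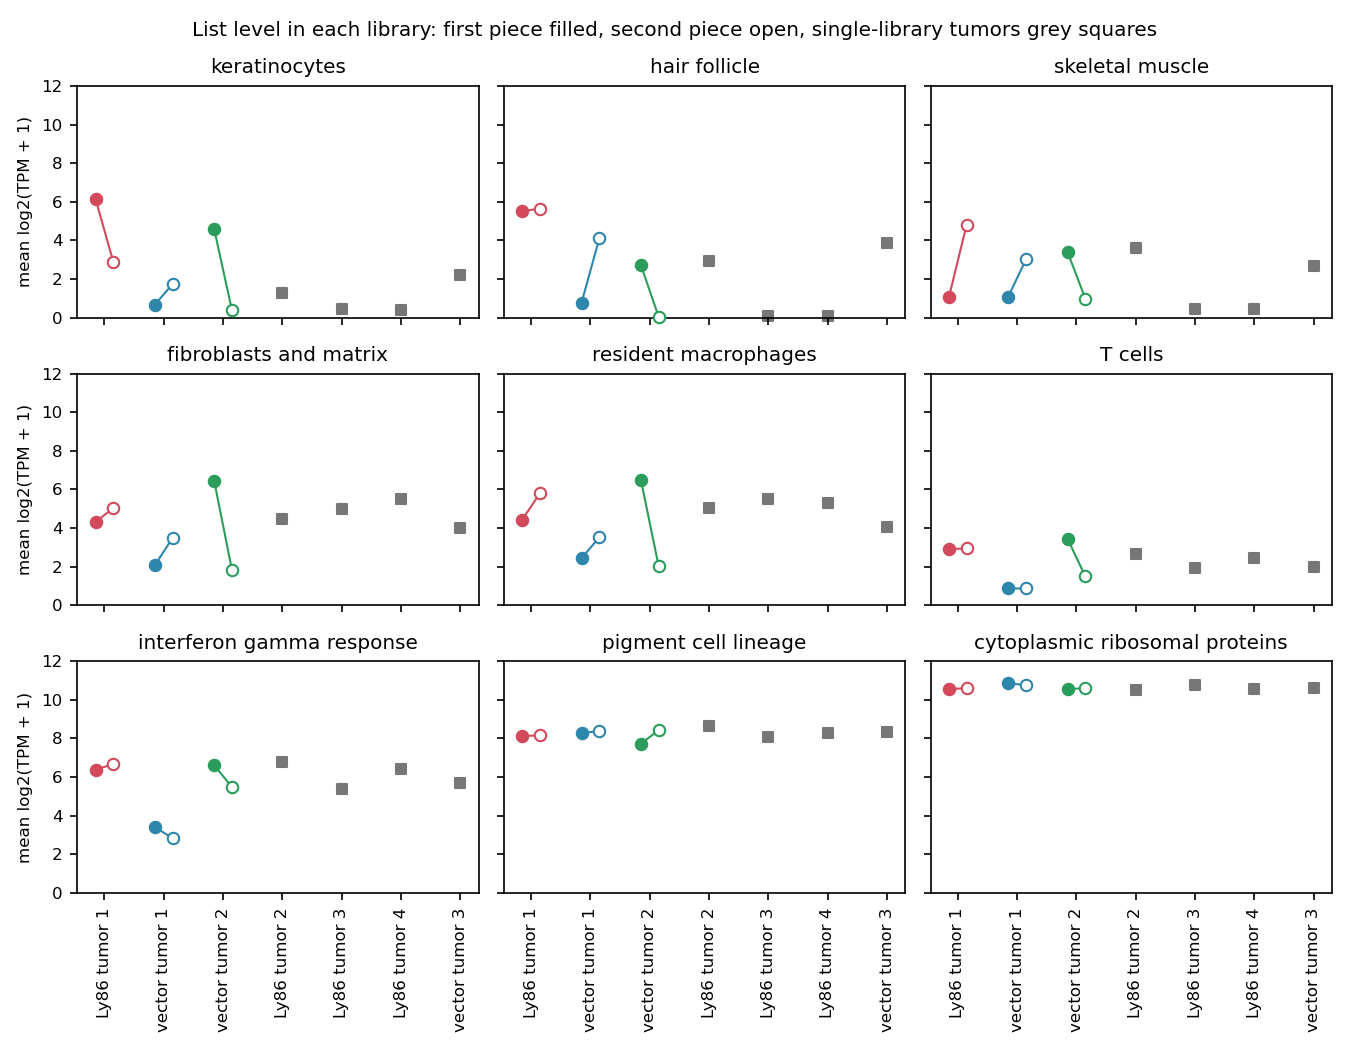
Mean log2(TPM + 1) of 9 gene lists (y axis) in each library, with the first piece of a divided tumor filled, the second open, joined by a line, and the 4 single-library tumors as grey squares. The keratinocyte level is higher in the first piece of Ly86 tumor 1 and the muscle level in its second, fibroblast, macrophage and T cell levels are far lower in the second piece of vector tumor 2 than in the first, and the ribosomal protein level stays between 10.50 and 10.85 in all 10 libraries.

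Connective tissue set the pieces of vector tumor 2 apart more than any skin tissue did, by median difference. Postn, periostin of activated fibroblasts, stood at 859 and 7.67 TPM in vector tumor 2, against 11.8 and 67.1 TPM in vector tumor 1 and 125 and 89.0 TPM in Ly86 tumor 1. Dcn (decorin), a proteoglycan that binds collagen, stood at 303 and 2.72 TPM in vector tumor 2, 3.43 and 24.6 TPM in vector tumor 1, and 104 and 161 TPM in Ly86 tumor 1. The second piece of vector tumor 2 and the first piece of vector tumor 1 were thus both poor in fibroblast RNA. The list of 30 fibroblast and matrix genes had medians of 4.80 in vector tumor 2, -1.33 in vector tumor 1 and -0.60 in Ly86 tumor 1, and 29 genes were at least 2-fold higher in the first piece of vector tumor 2, 24 in the second of vector tumor 1 and 11 in the second of Ly86 tumor 1. Fat genes were on the same side as the fibroblast list in each tumor by their median. Cfd (adipsin) held 277 TPM in the first piece of vector tumor 2 and was listed at 0 in the second. Fabp4, the fatty acid carrier of fat cells that macrophages and endothelium also express, held 408 and 12.1 TPM there. Car3, a carbonic anhydrase of fat and muscle, stood at 99.7 and 0.47 TPM in vector tumor 2 and 0.39 and 36.4 TPM in vector tumor 1, and at 119 TPM in the second piece of Ly86 tumor 1. The adipocyte list had medians of 3.63 in vector tumor 2, -0.76 in vector tumor 1 and -0.69 in Ly86 tumor 1 over 16 genes. Vessel genes were mostly apart in vector tumor 2 and mostly not in the others. Pecam1, which joins endothelial cells, was at 87.8 and 10.1 TPM there, 15.0 and 21.0 TPM in vector tumor 1 and 24.2 and 29.3 TPM in Ly86 tumor 1. In the order vector tumor 2, vector tumor 1 and Ly86 tumor 1, 18, 1 and 0 of 20 endothelial genes were apart.

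Macrophage genes were higher in the first piece of vector tumor 2, and by less in the second piece of the other tumors. Adgre1 (F4/80), a surface marker of mouse macrophages, stood at 178 and 4.77 TPM in vector tumor 2, 8.96 and 12.8 TPM in vector tumor 1 and 57.9 and 85.2 TPM in Ly86 tumor 1. Cd163, a hemoglobin scavenger receptor of resident macrophages, stood at 69.6 and 0.04 TPM in vector tumor 2, 0.38 and 3.35 TPM in vector tumor 1, and 4.67 and 22.5 TPM in Ly86 tumor 1. In each tumor 1 piece thus held more Cd163 than its partner, although the higher piece of vector tumor 1 lay below the lower piece of Ly86 tumor 1. The difference was 6.08 in vector tumor 2, -1.66 in vector tumor 1 and -2.05 in Ly86 tumor 1. Folr2, a folate receptor of the same cells, stood at 164 and 2.67 TPM in vector tumor 2, 4.38 and 21.99 TPM in vector tumor 1, and 35.8 and 125 TPM in Ly86 tumor 1. Retnla, a secreted product of alternatively activated macrophages that fat also makes, held 71.3 TPM in the second piece of Ly86 tumor 1 and 132 TPM in the first of vector tumor 2, and was listed at 0 in both partners. The resident list (15 genes) had medians of 4.82 in vector tumor 2, -1.01 in vector tumor 1 and -1.42 in Ly86 tumor 1, and the general macrophage list (30 genes) of 3.40, -0.53 and -0.85 in the same order. Of the resident genes, 15 were at least 2-fold higher in the first piece of vector tumor 2, 8 in the second of vector tumor 1 and 9 in the second of Ly86 tumor 1, and of the general genes 29, 2 and 9.

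Ly86 itself, which encodes the MD-1 protein that pairs with the receptor RP105, was higher in the same piece of each tumor as the macrophage lists. Its difference was -0.73 in the tumor with the Ly86 construct, -0.59 in vector tumor 1 and 3.21 in vector tumor 2. The single-library Ly86 tumors held 53.2, 58.9 and 75.4 TPM and vector tumor 3 held 30.3 TPM. The first piece of vector tumor 2 lay between the pieces of Ly86 tumor 1, and its second piece lay between those of vector tumor 1. Cd180, the gene of RP105, stood at 23.6 and 37.2 TPM in Ly86 tumor 1, 3.16 and 4.11 TPM in vector tumor 1, and 28.9 and 3.84 TPM in vector tumor 2. Lbp and Cd14, which hand lipopolysaccharide to the related Tlr4 complex, differed by 5.75 and 2.66 in vector tumor 2, where 4 of the 6 genes of these receptor complexes were at least 2-fold higher in the first piece. Macrophage and Ly86 levels were high in the same pieces, and the part of either in the other was not tested.

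T cell genes were alike in the pieces of Ly86 tumor 1. In both pieces of vector tumor 1 they averaged only 0.87 log2(TPM + 1), a level at which differences are understated and likeness cannot be read. Cd3e, a chain of the T cell receptor complex, stood at 10.1 and 8.42 TPM in Ly86 tumor 1, 0.72 and 0.24 TPM in vector tumor 1 and 16.6 and 1.59 TPM in vector tumor 2. The T cell list (23 genes) had medians of 0.07, 0.05 and 2.03 in that order, and 22 members were at least 2-fold higher in the first piece of vector tumor 2, against 1 and 1 apart in Ly86 tumor 1 and vector tumor 1. Vector tumor 1 was low in both pieces, with summed T cell levels of 29.5 and 33.3 TPM against 204 and 205 TPM in Ly86 tumor 1. Some cytotoxic genes departed from this in Ly86 tumor 1. Gzmb, a granzyme of killer cells, was at 29.0 and 55.6 TPM there and Gzma at 4.85 and 25.8 TPM, and 7 of 24 members of the cytotoxic list were at least 2-fold higher in its second piece. Gzmk, another granzyme, lay the other way there, at 3.32 and 2.15 TPM, and the list had a median of -0.29 with members up to 0.81. Mast cell genes were higher in the pieces of the vector tumors that were richer in connective tissue. Cma1 (chymase) was at 8.30 and 14.6 TPM in Ly86 tumor 1, 0.11 and 2.81 TPM in vector tumor 1 and 36.7 TPM in the first piece of vector tumor 2, with its partner listed at 0. Mcpt4, a protease of the same cells, lay the other way in Ly86 tumor 1, at 17.7 and 13.9 TPM, and stood at 0.43 and 3.37 TPM in vector tumor 1. Of the 19 genes of that list 6 were high enough to be tested, and none of them was 2-fold apart in Ly86 tumor 1, while 4 were in vector tumor 1 and 5 in vector tumor 2. Cxcl5, which attracts neutrophils, was at 1.58 and 16.7 TPM in Ly86 tumor 1 and at 13.1 TPM in the first piece of vector tumor 2, with its partner listed at 0. Over the 17 chemokine genes the medians were -1.04 in Ly86 tumor 1, 0.46 in vector tumor 1 and 2.21 in vector tumor 2.

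By their share of variance, interferon and antigen presentation genes differed more between tumors than between pieces. Cd74, the chaperone of MHC class II, stood at 1650.1 and 2809.7 TPM in Ly86 tumor 1, 105 and 124 TPM in vector tumor 1 and 2424 and 669 TPM in vector tumor 2, so that both pieces of vector tumor 1 lay below all the others. The interferon gamma list (26 genes) had medians of -0.14 in Ly86 tumor 1, 0.48 in vector tumor 1 and 0.86 in vector tumor 2. In the same order, the class I list (20 genes) had medians of -0.08, 0.71 and 0.90, and the class II list (10 genes) of -0.86, -0.10 and 1.53. The interferon gamma list averaged 6.37 and 6.67 log2(TPM + 1) in Ly86 tumor 1, 3.39 and 2.83 in vector tumor 1 and 6.61 and 5.47 in vector tumor 2. The share of a gene's variance over the 6 libraries that lay between tumors had a median of 0.91 in this list, 0.86 for class I and 0.85 for class II, beside 0.25 over all genes and -0.77 for skeletal muscle, where a negative share means that pieces of 1 tumor differed more than tumors did.

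Genes of the pigment lineage were lower in the first piece of vector tumor 2, the one rich in stroma, and alike in the pieces of the other tumors. Tyr, the first enzyme of melanin synthesis, stood at 122 and 302 TPM in vector tumor 2, 240.2 and 272 TPM in vector tumor 1 and 192 and 203 TPM in Ly86 tumor 1. Trpm1, a channel gene under Mitf, was at 288 and 692 TPM in vector tumor 2, 606 and 589 TPM in vector tumor 1, and 419.9 and 498 TPM in Ly86 tumor 1. The 21 tested lineage genes took up 1.35% of all TPM in the first piece of vector tumor 2 and 2.53% in the second, with a median of -0.85, and 20 were higher in the second piece. The exception was Ednrb, an endothelin receptor that endothelium also carries, at 34.0 and 3.26 TPM. In vector tumor 1 and Ly86 tumor 1 the medians were -0.06 and 0.01. Cholesterol synthesis genes lay on the same side in vector tumor 2, with a median of -1.07 and 13 of 18 genes at least 2-fold higher in the second piece, and in the opposite direction by less in Ly86 tumor 1, with a median of 0.41. Insig1, which holds back that pathway, was at 78.2 and 242 TPM in vector tumor 2 and 145 and 102 TPM in Ly86 tumor 1. Replication genes (28) and mitosis genes (25) had medians of -0.33 and -0.36 in vector tumor 2, 0.34 and 0.29 in Ly86 tumor 1, and -0.09 and -0.10 in vector tumor 1. Of these, only Ccne2, the S phase cyclin E2, reached 2-fold in any tumor, at 16.3 and 7.30 TPM in Ly86 tumor 1.

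Red cell genes were at least 2-fold higher in the first piece of vector tumor 1, and hypoxia genes were higher there by less. Hbb-bs, an adult beta globin of red cells, stood at 848 and 201 TPM in vector tumor 1, 364 and 176 TPM in vector tumor 2 and 153 and 167 TPM in Ly86 tumor 1. The erythroid list had a median of 1.91 in vector tumor 1, where 5 of 6 tested genes were at least 2-fold higher in the first piece, 4 of them globins with near-identical copies. That median was 0.43 with no filter on low values and 0.83 with mitochondrial and hemoglobin genes left out. Hypoxia and glycolysis genes had medians of 0.52 in vector tumor 1, -0.41 in vector tumor 2 and -0.05 in Ly86 tumor 1. Ankrd37, a target of hypoxia-inducible factor, was at 19.3 and 7.42 TPM in vector tumor 1, and 26 of the 28 genes were higher in its first piece, 2 of them by 2-fold. The piece rich in these genes was the one poor in hair follicle, muscle and fibroblast RNA, and the part of those tissues in the difference was not tested.

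**Figure D4:**
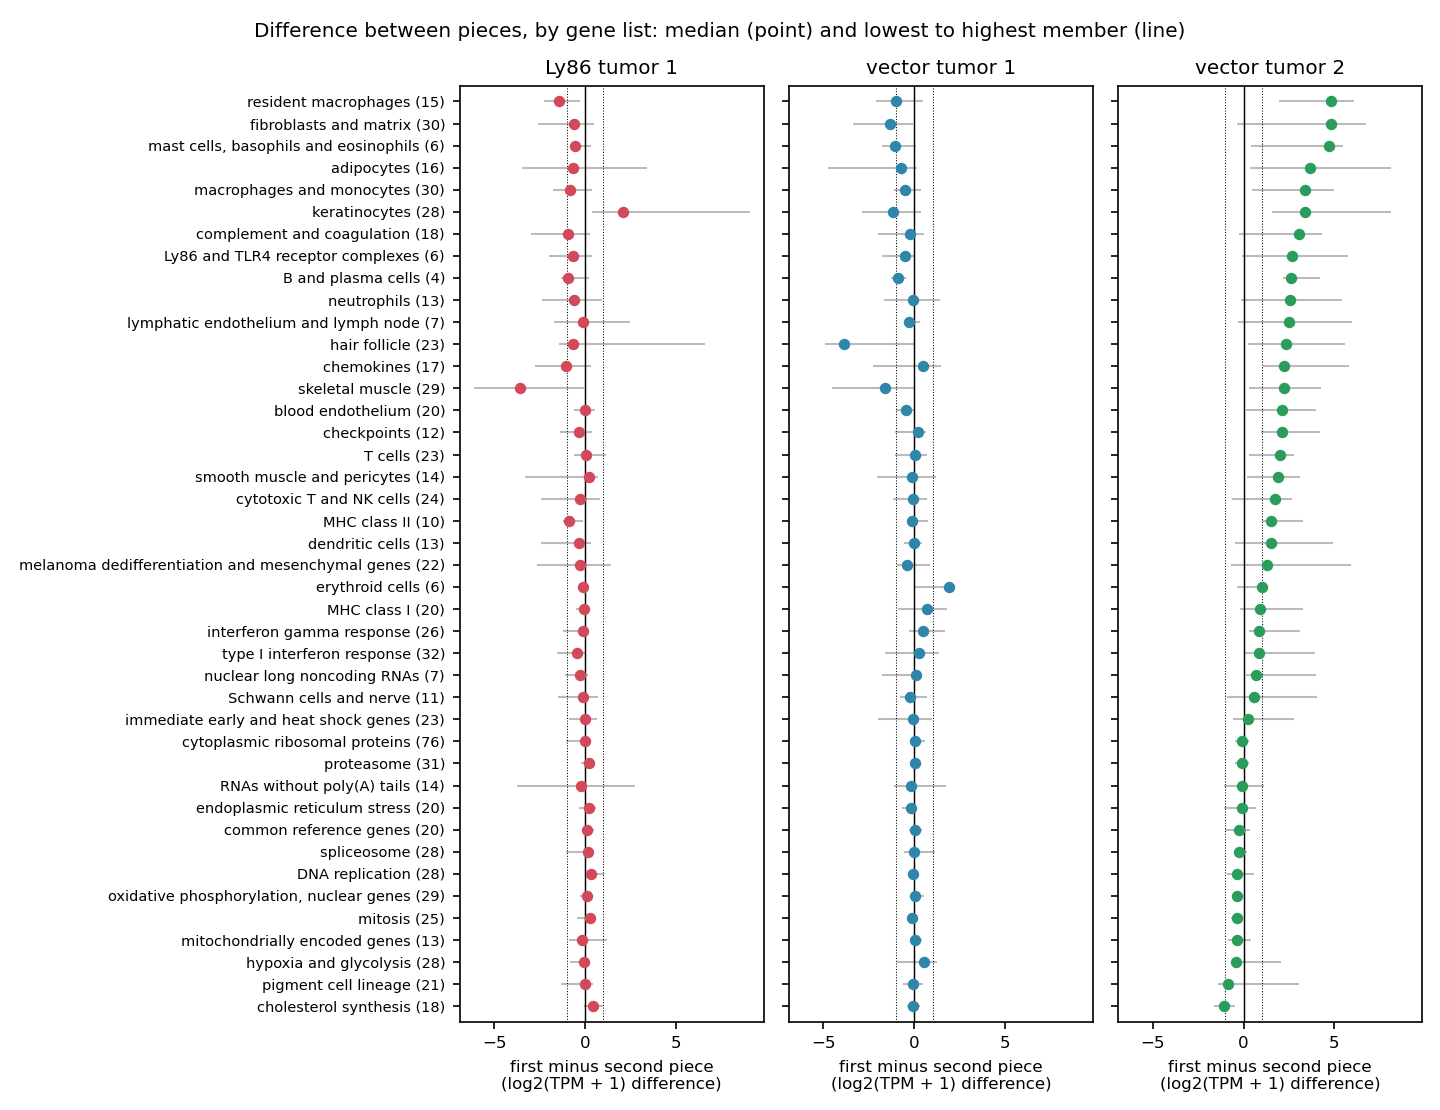
First-minus-second difference in log2(TPM + 1) (x axis) for gene lists with at least 4 tested members (rows, number tested in brackets) in each divided tumor, with the median as a point, the lowest to highest member as a line and dotted lines at 1 log2 unit to either side. In vector tumor 2 the tissue and immune lists reach medians of up to 4.82 while pigment and cholesterol genes lie on the other side, in Ly86 tumor 1 the muscle (-3.56) and keratinocyte (2.10) lists lie farthest from 0, and in vector tumor 1 the hair follicle (-3.89) and erythroid (1.91) lists.

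Genes of ribosomes and proteasomes were often close in the pieces of all 3 tumors. Of all tested genes, 2507 (16.9%) were close in all 3 tumors, and 76.0% were apart in none. Without vector tumor 2, 5352 (36.1%) were close in both other tumors. Cytoplasmic ribosomal protein genes were close most often among the lists, 54 of 76, with medians of 0, 0.05 and -0.07. Of the proteasome genes 15 of 31 were close, of the spliceosome 8 of 28, of the common reference genes 7 of 20, and of the nuclear genes of oxidative phosphorylation 7 of 29. All 29 of the latter were lower in the first piece of vector tumor 2, with a median of -0.34. Of the mitochondrially encoded genes 1 of 13 was close. Of all genes at 100 TPM or more, 27.99% were close. Among genes of at least 100 TPM the steadiest included Septin7, a filament-forming GTPase, at 138 and 137 TPM in Ly86 tumor 1, 148 and 147 TPM in vector tumor 1, and 143 and 143 TPM in vector tumor 2. Cox6a1, a subunit of cytochrome c oxidase, was at 887 and 861 TPM in Ly86 tumor 1, 855 and 876 TPM in vector tumor 1, and 848 and 844 TPM in vector tumor 2. All 6 pieces lay within a narrow range for both genes. Sec61b, of the channel into the endoplasmic reticulum, was as close within tumors but not between them, at 258 and 255 TPM in Ly86 tumor 1, 339 and 339 TPM in vector tumor 1, and 230.2 and 232 TPM in vector tumor 2. Snrnp70, the U1 splicing protein, Sumo3, a ubiquitin-like modifier, and Rpl9, Rpl19 and Rps26 of the ribosome were also among the 12 genes with the smallest differences. Some familiar reference genes were less steady. Tfrc, the transferrin receptor, was at 65.3 and 134 TPM in vector tumor 2, and Gapdh at 9154 and 13686 TPM.

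Most of the 183 genes apart in all 3 tumors had the directions of the muscle list, which other lists shared. Of the 183, 114 were higher in the second piece of Ly86 tumor 1 and vector tumor 1 and in the first of vector tumor 2. The medians of the fibroblast, resident macrophage, adipocyte and hair follicle lists also had these directions. The muscle list held 19 genes apart in all 3 tumors, the fibroblast list 10 and the resident macrophage list 6. Another 41 were higher in the first, second and first piece, the pattern of the keratinocyte list. Besides contractile genes the 183 included Fhl1, a LIM domain protein of muscle, at 2.31 and 45.2 TPM in Ly86 tumor 1, 1.27 and 21.3 TPM in vector tumor 1, and 31.7 and 1.31 TPM in vector tumor 2. Without vector tumor 2, 250 genes (1.69%) were apart in both other tumors. Of the same 183, 34 had names of predicted genes or pseudogenes, 18.6% against 12.4% of all tested genes. In all, 9 were apart in the same direction in all 3 tumors, namely Krt6b, Sprr2a2, Gm11878, Gm4294, Gm50336 and Gm57392, higher in the first piece, and Gm56769, Gm56848 and Mrps36-ps2, higher in the second. These 9 were chosen after their values were seen. Krt6b, a keratin of wounded epidermis, held 282, 1.53 and 3.14 TPM in the 3 first pieces and was listed at 0 in the 3 second pieces. The genes higher in the second piece of Ly86 tumor 1 shared 139 members with those of vector tumor 1, 22.4% of the one set and 23.3% of the other. Of all tested genes, 4.03% were in that set of vector tumor 1. They shared 423 with the genes higher in the first piece of vector tumor 2, 68.1% and 16.3% of the sets. That large set, 17.6% of all tested genes, also held 58.0% of the genes higher in the first piece of Ly86 tumor 1. It held 64.3% of those higher in the second piece of vector tumor 1, so the overlap was not particular to 1 set.

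The last comparisons asked whether first and second pieces differed alike in all 3 tumors, and whether tumors differed by more than their pieces did. In limma's paired test of first against second piece, 0.0% of genes passed an adjusted p of 0.05, and 149 had an unadjusted p below 0.05. In limma's F test of the 3 tumors, with the pieces as the residual, 0.0% passed, 1851 had an unadjusted p below 0.05, and the smallest adjusted p was 0.183. This result rested on vector tumor 2. In limma, 693 genes passed without it, 43 without its first piece alone and 1015 without its second piece alone. With 1 piece of it left out, the residual came from the other 2 tumors, and the remaining piece was assumed to vary as theirs did. The F test compares these 3 tumors and does not compare Ly86 with vector. Its 10 smallest p-values included those of Gbp10 and Iigp1 of the interferon gamma list. Gbp10, a guanylate-binding protein, stood at 63.7 and 103 TPM in Ly86 tumor 1, 2.13 and 1.48 TPM in vector tumor 1 and 96.3 and 57.4 TPM in vector tumor 2 (limma adjusted p = 0.183). Iigp1, an immunity-related GTPase, was at 342 and 329 TPM in Ly86 tumor 1, 23.9 and 13.7 TPM in vector tumor 1, and 273 and 153 TPM in vector tumor 2 (limma adjusted p = 0.209). Irf8, a transcription factor of myeloid cells that interferon gamma induces, was at 119 and 135 TPM in Ly86 tumor 1, 11.1 and 8.27 TPM in vector tumor 1, and 153 and 84.6 TPM in vector tumor 2 (limma adjusted p = 0.209). Both pieces of vector tumor 1 were low in all 3 genes. The immediate early gene Fos and the clock gene Per1 set vector tumor 2 apart instead, in both of its pieces, with Fos at 165 and 128 TPM against 28.6 and 37.3 TPM in Ly86 tumor 1 and 20.2 and 15.3 TPM in vector tumor 1 (limma adjusted p = 0.209 for Fos and 0.183 for Per1). All of these genes were named for their small p in this F test of the same 6 libraries. Their separation by tumor therefore came with that choice. None of them passed with all 6 libraries.

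**Figure D5:**
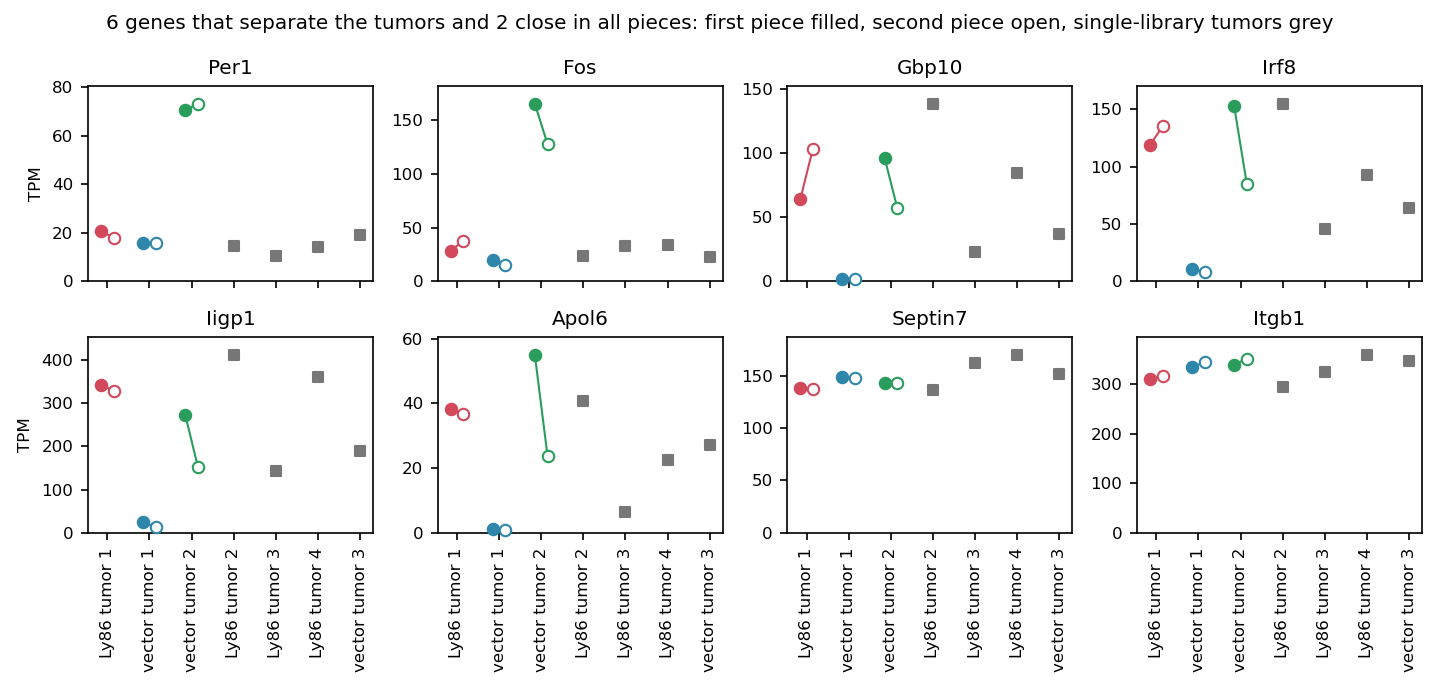
TPM (y axis) of 8 genes in each library, with the first piece of a divided tumor filled, the second open, joined by a line, and single-library tumors as grey squares. Per1 and Fos are highest in both pieces of vector tumor 2, Gbp10, Irf8, Iigp1 and Apol6 are lowest in both pieces of vector tumor 1, and Septin7 and Itgb1 differ little between pieces.

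Some genes were high in 1 piece of a tumor and low in its partner, and several of them were also high in another tumor. Crygn, a crystallin gene, held 31.1 TPM in the second piece of vector tumor 2, 0.39 TPM in the first piece of Ly86 tumor 1 and was listed at 0 in the other 8 libraries. Chd5, a chromatin remodeler, was at 6.60 TPM in that piece and at 0.75 TPM or less elsewhere, and Mettl17, a mitochondrial methyltransferase-like protein, at 69.3 TPM against 14.7 TPM in the partner and 41.1 TPM in Ly86 tumor 2. Cck, a peptide hormone gene, was at 118 TPM against 17.3 TPM in the partner, and at 135 TPM in Ly86 tumor 2 and 92.2 TPM in Ly86 tumor 3. In vector tumor 1 the largest differences toward the first piece included short noncoding RNAs and pseudogenes that were listed at 0 in the partner, beside the protein-coding Cacnb4, a calcium channel subunit, at 13.5 and 1.34 TPM. Among them were Mir8091 (87.5 TPM, listed at 0 in the other 9 libraries), Bc1 (60.8 TPM, and 68.8 TPM in Ly86 tumor 2) and Snora73a (25.5 TPM, and 51.7 TPM in the first piece of vector tumor 2). Pseudogenes can share reads with their parent genes, so their separate values are uncertain.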

How the data were processed

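Polyadenylated RNA of 10 B16F10 tumor samples was sequenced, and the authors deposited 1 table of gene levels for the series. The submitters' processing notes name STAR 2.7.10b, RSEM 1.3.3 and the mouse build mm39, with no role or order. The values deposited by the authors are on a log2 scale. They were read here as log2(TPM + 1) from the values themselves, since 99.9% of them turn back into whole steps of 0.01 TPM (tolerance 0.0001 of a step) and the libraries then sum to between 994679 and 996446 TPM. TPM keeps no read depth, so no counting interval can be given.

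Genes averaging 1 TPM or more over the 6 pieces were kept, and differences were taken with a pseudocount of 1. Pieces within a tumor were compared without a test. Differences between tumors, and between first and second pieces with tumor as a block, were tested over all 14814 genes with limma 3.58.1 (eBayes with trend, Benjamini-Hochberg adjustment, threshold 0.05) in R 4.3.3. The pairing comes from the labels, which give both pieces of a pair to 1 tumor. Tables and plots were made with Python 3.11.15, pandas 2.3.3 and matplotlib 3.10.9. The limma steps were tested on simulated data, in which the changed genes were drawn from those with a spread between pieces below the median. That check therefore does not cover genes that varied more between pieces. The F test sets tumors against the spread between pieces of a tumor, and the paired test sets the piece difference against its spread over tumors. The labels do not say that the tumors came from separate mice, so neither p-value measures the spread between mice. Part of either spread may be technical.

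Named genes were the 12 largest differences in each direction per tumor (predicted genes left out), the 10 apart in all 3 tumors by the largest smallest difference, the 12 steadiest genes of at least 100 TPM, the 10 smallest p-values of the tumor test, Ly86 and up to 4 members of each gene list. A few further genes were named after their values were seen. The 44 gene lists hold 973 genes, of which 25 are absent from the table, and the libraries and lists were chosen with earlier results of these data known. Alternatives were the pseudocount, the filter, the size of difference, median-of-ratios and quantile scaling, leaving out mitochondrial and hemoglobin genes, other limma settings, and leaving out tumors and libraries. No gene coordinates are given because an mm39 annotation was not used here.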

Additional observations from a re-analysis of the deposited data

Results flagged for a closer look

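For 7 gene lists with at least 5 tested genes, the median first-minus-second difference (log2(TPM + 1)) pointed one way in vector tumor 2 and the other way in another tumor, with both medians at least 1 in size. The difference between tumors was not tested, and the words first and second mark no stated side of a tumor. Against vector tumor 1, the medians were 3.38 in vector tumor 2 and -1.17 for keratinocytes, 2.35 and -3.89 for hair follicle, 4.80 and -1.33 for fibroblasts and matrix, and 4.71 and -1.07 for mast cells, basophils and eosinophils. With no filter on low values the last pair was 0.81 and -0.17, so that neither stayed at 1. The keratinocyte list was low in both pieces of vector tumor 1, at a mean of 0.67 and 1.74 log2(TPM + 1). Against Ly86 tumor 1, the medians were 2.20 in vector tumor 2 and -3.56 for skeletal muscle, 4.82 and -1.42 for resident macrophages, and 2.21 and -1.04 for chemokines. The chemokine median in Ly86 tumor 1 fell to -0.79 at its smallest over the alternatives.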

How the results depend on the processing

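Counts of genes apart followed the limits set. With a mean TPM of at least 5 they were 448 in Ly86 tumor 1, 423 in vector tumor 1, 1601 in vector tumor 2 and 121 in all 3, from 1050, 798, 2971 and 183. With a difference of at least 0.5 they were 2837, 2641, 5708 and 826, and with at least 2 they were 320, 248, 1359 and 29. A pseudocount of 0.1 gave 1671 in vector tumor 1 and 496 in all 3, and one of 0.5 gave 277 in all 3. Genes close in all 3 tumors (2507) became 7369 with no filter, 253 under a limit of 0.1 and 7504 under 0.5. The tumor F test called 0 genes, and 693 without vector tumor 2. Leaving out 1 library at a time gave 0 to 1015. With the piece number as a block it called 0 (1236 with an unadjusted p below 0.05). The paired test of first against second pieces called 0 under every alternative run, also with no block (128 unadjusted). Of 921 recomputed list medians, 0 turned in direction among those of at least 1 in size and 24 moved. Of 37 list medians of at least 1, 17 shifted by over 1.5 times under some alternative and 10 fell under 1 in size. Mast cell medians fell to 0.81 in vector tumor 2 and -0.17 in vector tumor 1 with no filter, and the keratinocyte median of vector tumor 2 was 6.04 with a pseudocount of 0.1. TPM gives no depth.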

Other observations

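Several immune and vessel lists not described above were also higher in the first piece of vector tumor 2 than in the second. Complement and coagulation genes had a median difference of 3.02 there, with 14 of 18 at least 2-fold higher, against -0.95 in Ly86 tumor 1 and -0.24 in vector tumor 1. C3, the central complement protein, stood at 20.7 and 168 TPM in Ly86 tumor 1, 1.5 and 9.12 TPM in vector tumor 1 and 120 and 5.18 TPM in vector tumor 2. The second piece of Ly86 tumor 1 thus held more C3 than any other piece. Immune checkpoint genes had medians of -0.35, 0.21 and 2.12 in Ly86 tumor 1, vector tumor 1 and vector tumor 2, and 11 of 12 were at least 2-fold higher in the first piece of vector tumor 2. Tigit, an inhibitory receptor of T and NK cells, stood at 6.98 and 7.68 TPM, 1.11 and 0.50 TPM and 18.8 and 2.24 TPM in the same order.

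Ccl21a, a chemokine of lymphatic vessels and lymph nodes that has near-identical copies, stood at 72.8 and 12.4 TPM in Ly86 tumor 1 and 82.0 and 0.32 TPM in vector tumor 2, so it was higher in the first piece of both. Trib3, a stress-induced pseudokinase, was higher in the second piece of vector tumor 2, at 36.6 and 62.8 TPM, while the list of endoplasmic reticulum stress genes had a median of -0.11 there.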
